A study of Mus musculus with 2 samples.

Results

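The 10 genes described here are subject to genomic imprinting and were measured in mouse mammary basal cells, the outer epithelial layer of the gland. One library, Scramble control, came from cells with a non-targeting hairpin RNA, and the other, Cdk14-sh, from cells with a hairpin directed at the kinase gene Cdk14. The members were Snrpn, Peg3, Grb10, Impact, Plagl1, Cdkn1c, H19, Mest, Gnas and Igf2r. They were taken by symbol, and all 10 were among the 15239 genes of the deposited table. Each group held 1 messenger RNA library of cells labelled as normal mammary gland, so no difference has a replicate check and no test was possible. The set was chosen by symbol with the FPKM values of both libraries known, and Snrpn because its difference was among the largest, so the values below are descriptive. The labels disagree on the material, since the design text names the human line MDA-MB-231 and the extraction protocol names retinas, while the sample labels and the mouse gene identifiers point to mouse mammary cells. The sources used here do not state age, strain, number of animals or the sequence of the hairpin.

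An imprinted gene is expressed mainly from the allele inherited from 1 parent, because the other allele was marked, usually by DNA methylation, in the egg or sperm. Imprinted genes lie in clusters that share a control region, and many of them act on growth, cell cycle exit and nutrient supply in the embryo and placenta. Expression of many declines after birth, while some persist in adult stem and progenitor cells. Snrpn, Peg3, Plagl1, Mest and Impact are expressed from the paternal allele, and Cdkn1c, H19 and Igf2r from the maternal allele. For Grb10 and Gnas the active allele depends on the tissue and the transcript. The libraries measured total transcript per gene and give no information on which allele it came from.

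The stretches of promoter below are shown because Snrpn, Peg3, Plagl1 and Mest were higher in the Cdk14-sh library and are paternally expressed genes whose maternal copy is known to be methylated at or beside a promoter, whereas Igf2r was at nearly the same level in both libraries. The sequences are from RefSeq (GRCm38.p6), run 5′ to 3′ on the strand of the gene and lie upstream of an annotated start, outside annotated exons. Capitals mark CpG dinucleotides (the letters CG, the same on both strands), the sites of DNA methylation. Methylation was not measured in these samples.
Snrpn and Snurf, chr7:60005200-60005449, minus strand: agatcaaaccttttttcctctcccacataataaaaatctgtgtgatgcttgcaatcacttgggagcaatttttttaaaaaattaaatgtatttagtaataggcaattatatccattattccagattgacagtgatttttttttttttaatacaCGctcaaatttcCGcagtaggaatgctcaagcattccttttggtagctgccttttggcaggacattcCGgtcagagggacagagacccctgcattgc
Peg3, chr7:6730432-6730577, minus strand: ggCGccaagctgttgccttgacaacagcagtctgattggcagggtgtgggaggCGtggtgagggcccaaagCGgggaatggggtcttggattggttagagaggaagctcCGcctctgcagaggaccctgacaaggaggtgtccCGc
Plagl1, chr10:13090582-13090690, plus strand: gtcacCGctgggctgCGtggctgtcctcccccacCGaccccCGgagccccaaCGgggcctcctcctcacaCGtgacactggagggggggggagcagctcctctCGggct
Mest, chr6:30737800-30738049, plus strand: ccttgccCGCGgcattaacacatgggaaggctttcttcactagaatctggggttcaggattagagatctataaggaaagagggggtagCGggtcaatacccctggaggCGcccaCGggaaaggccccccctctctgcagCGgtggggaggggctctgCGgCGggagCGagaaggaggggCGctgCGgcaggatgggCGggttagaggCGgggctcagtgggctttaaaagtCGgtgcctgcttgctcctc
Igf2r, chr17:12769707-12769956, minus strand: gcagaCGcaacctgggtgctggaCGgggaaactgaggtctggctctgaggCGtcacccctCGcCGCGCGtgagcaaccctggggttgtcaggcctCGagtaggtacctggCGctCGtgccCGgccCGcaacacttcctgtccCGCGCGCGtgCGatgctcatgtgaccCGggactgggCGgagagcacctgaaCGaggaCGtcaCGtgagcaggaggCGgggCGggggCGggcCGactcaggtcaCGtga
The CpG density was 1.20 per 100 bases in the Snrpn stretch, 3.42 in that of Peg3, 6.42 in that of Plagl1, 5.60 in that of Mest and 10.8 in that of Igf2r. RefSeq windows were found for 7 of the 10 members. Over the 250 bases upstream of 32817 annotated starts of all genes, the median was 6 CpG and the middle of the distribution ran from 2 to 16. On that scale the full 250-base Snrpn window held 3 CpG, the Peg3 window 8, the Mest window 14, the Plagl1 window 19 and the Igf2r window 27. For Snrpn the window shared with Snurf was taken, and for the other genes the window richest in CpG. The annotated windows of Snrpn held 2 to 4 CpG and those of Mest 7 to 14. Of the 5 windows taken, that of Snrpn was the poorest in CpG and that of Igf2r the richest. Because CpG entered the choice, nothing is read from their place among all starts.

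H19 and Mest lie over microRNA genes, which are shown because the host transcripts differed between the libraries. Seeds, bases 2 to 8, are in capitals.
mmu-miR-675-5p, within H19: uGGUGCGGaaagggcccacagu
mmu-miR-675-3p, within H19: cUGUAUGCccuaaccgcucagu
mmu-miR-335-5p, within Mest: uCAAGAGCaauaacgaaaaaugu
The 3 seeds differ from each other. The microRNAs themselves were not analysed here.

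Levels are FPKM, fragments scaled to gene length and library size, which allows comparison between genes. Ratios of FPKM are Cdk14-sh over Scramble control. Intervals in parentheses are exact 95% binomial (Clopper-Pearson) intervals of counting error, from reads recovered from the FPKM values and gene lengths. They compare 2 libraries and not 2 conditions. The targeted gene Cdk14 was at 0.713 FPKM in Cdk14-sh and 2.06 FPKM in Scramble control, 34.5% of the control level (ratio 0.345, 0.256 to 0.453). Differences were counted on the scale log2(FPKM + 1). Genes whose mean over both libraries reached 1 FPKM are called measured below, and a gene is called 2-fold higher or lower where the Cdk14-sh value was that far from the control or farther. On the log2(FPKM + 1) scale Cdk14 was at -0.84, short of 2-fold lower, and its mean reached 1 FPKM only through Scramble control.

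**Figure D1:**
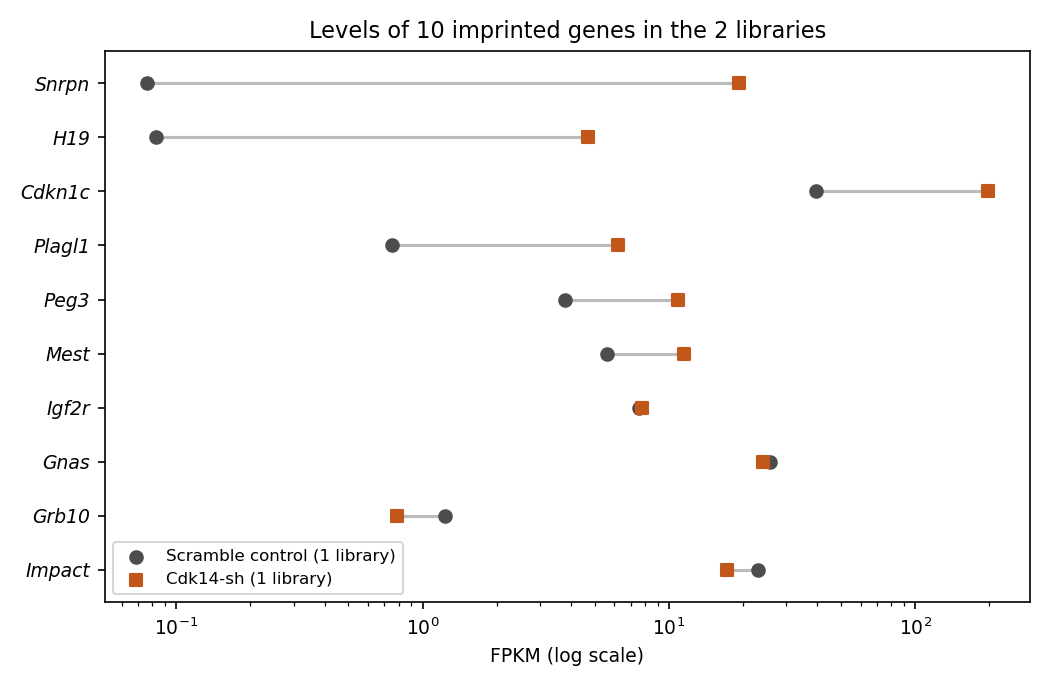
FPKM (log axis) of the 10 imprinted genes in the Scramble control library (circles) and the Cdk14-sh library (squares), with a line joining the values of a gene. Snrpn and H19 were below 0.1 FPKM in Scramble control and at 19.2 and 4.70 FPKM in Cdk14-sh, and Cdkn1c was the highest member in both libraries.

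Of the 10 members, 5 (Snrpn, H19, Cdkn1c, Plagl1 and Peg3) were 2-fold higher in Cdk14-sh on the log2(FPKM + 1) scale and 0 were 2-fold lower. Among all 12830 measured genes, 14.2% were 2-fold higher and 13.5% 2-fold lower. At a limit of 1.5-fold, 6 members were higher and 0 lower, against 25.2% and 24.5% of all genes. At 4-fold, 4 were higher and 0 lower, against 3.27% and 2.69%. Just past the 2-fold limit was Peg3, with a log2 ratio of 1.31, and just short of it Mest, with 0.93. The median log2 ratio was 1.12 over the members and 0.02 over all genes. The choice of the members used this same comparison, so nothing is read from the gap. All 10 members passed the filter on low values, but 4 of them (Snrpn, H19, Plagl1 and Grb10) were below 1 FPKM in 1 library and passed through the library in which they were higher. Summed over the members, the level was 107 FPKM in Scramble control and 299 FPKM in Cdk14-sh, of which Cdkn1c alone made up 39.7 and 197 FPKM.

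**Figure D2:**
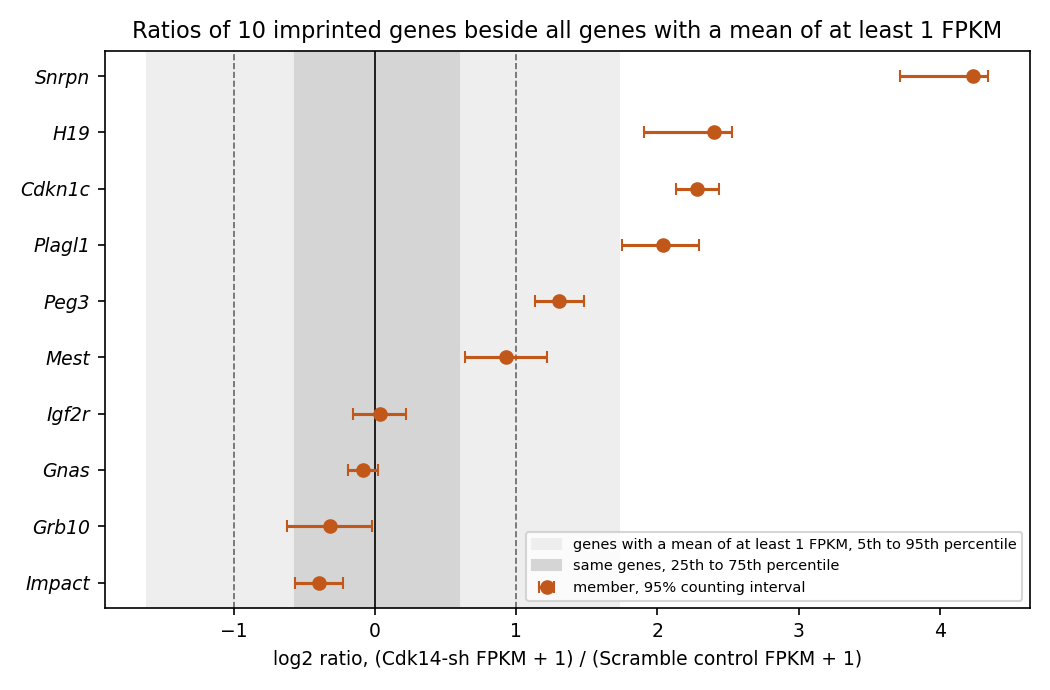
Log2 ratio, Cdk14-sh to Scramble control, of FPKM + 1 for each member, with 95% counting intervals. Shaded bands span all measured genes, from -0.57 to 0.60 (25th to 75th percentile) and from -1.62 to 1.73 (5th to 95th), and dashed lines mark 2-fold. Snrpn, H19, Cdkn1c and Plagl1 lie above the wider band, and Igf2r, Gnas, Grb10 and Impact lie within the narrower one.

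Among the paternally expressed members, Snrpn had the largest ratio. Snrpn encodes SmN, a relative of the SmB protein in the ring that holds spliceosomal small nuclear RNAs, and is known for high expression in brain and for its place in the Prader-Willi region. It stood at 0.0759 FPKM in Scramble control and 19.2 FPKM in Cdk14-sh, a ratio of 253 (37.5 to 8381), with a log2 ratio of 4.23 that ranked 10 from the top of 12830 genes. The log2 ratio depends on the pseudocount and was 2.25 with a pseudocount of 5 FPKM, 6.78 with 0.1 FPKM and 5.41 after scaling to an equal sum. The control value came from 1.67 recovered reads and the Cdk14-sh value from 422, so Snrpn was close to the lowest measurable level in Scramble control and its ratio is poorly bounded above.

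The Snrpn gene (ENSMUSG00000102252) is protein coding and spans 59982495 to 60140219 on the minus strand of chromosome 7 (GRCm38). Of its exonic bases, 27.3% are shared with other genes on the same strand. One is Snurf, a short reading frame on the same transcript as Snrpn, whose 216 annotated exonic bases are all shared. Snurf was at 0.304 FPKM in Scramble control and 19.3 FPKM in Cdk14-sh, from 0.670 and 42.3 recovered reads. Recovered reads of both together were 2.34 in Scramble control and 464 in Cdk14-sh. A further overlapping gene model, Gm38393, was at 0.0691 FPKM and 2.90 FPKM. All 3 models of the transcript were thus near the floor in Scramble control and higher in Cdk14-sh. They share exonic bases and have fractional read numbers, and are not counted here as separate observations.

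Plagl1 (Zac1) encodes a zinc finger transcription factor known for arresting the cell cycle and for regulating other imprinted genes. It was at 0.753 FPKM in Scramble control and 6.20 FPKM in Cdk14-sh, 8.22-fold higher (5.60 to 12.4), from 60 and 493 reads. Plagl1 (ENSMUSG00000019817) lies on chromosome 10 from 13060504 to 13131694 and shares 0.486% of its exonic bases with another gene, so its value is little exposed to the overlap that touches Snrpn. Plagl2, its biallelic relative, was at 4.24 FPKM in Scramble control and 4.49 FPKM in Cdk14-sh. Of the 2 related zinc finger genes only Plagl1 was beyond 2-fold, though no test of the difference between them was possible.

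Peg3, a large zinc finger protein linked to p53 and TNF signalling, was at 3.80 FPKM in Scramble control and 10.9 FPKM in Cdk14-sh, 2.86-fold higher (2.48 to 3.31). Its 516 and 1474 reads make it one of the better bounded members, and it shares 0 exonic bases with other genes. Peg3 (ENSMUSG00000002265) lies on chromosome 7 from 6703892 to 6730431. Mest, a membrane protein of the alpha/beta hydrolase fold that marks growing adipose and mesodermal tissue, was at 5.59 FPKM and 11.5 FPKM, 2.06-fold higher (1.64 to 2.61), from 224 and 463 reads. Mest (ENSMUSG00000051855, chromosome 6, 30723547 to 30748465) shares 23.1% of its exonic bases with genes on the opposite strand, among them Copg2, which was at 4.44 FPKM in Scramble control and 3.13 FPKM in Cdk14-sh.

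Impact was the only paternally expressed member that was lower in Cdk14-sh. Its protein binds Gcn1 and restrains the stress kinase Gcn2, which slows translation when amino acids are scarce. Impact was at 23.0 FPKM in Scramble control and 17.2 FPKM in Cdk14-sh, 1.33-fold lower (1.18 to 1.51), from 1201 and 900 reads, on chromosome 18 from 12955852 to 12992950. The difference is beyond counting error and inside the middle range of all genes, whose log2 ratios had an SD of 1.02 against -0.40 for Impact.

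Of the maternally expressed members, Cdkn1c was the most abundant gene of the set. It encodes p57Kip2, an inhibitor of cyclin-dependent kinases that holds stem and progenitor cells out of the cycle. Cdkn1c was at 39.7 FPKM in Scramble control and 197 FPKM in Cdk14-sh, 4.96-fold higher (4.46 to 5.53), from 824 and 4088 reads. Its log2 ratio of 2.28 ranked 264 of 12830. Cdkn1c (ENSMUSG00000037664) is protein coding, occupies 143458339 to 143461050 of chromosome 7 (minus strand) and shares 30.6% of its exonic bases with genes on the opposite strand. Gm44732, an antisense model with 98.4% of its exonic bases inside that overlap, was at 30.7 FPKM in Scramble control and 179 FPKM in Cdk14-sh, 5.83-fold higher (4.71 to 7.31). The kit keeps strand, but the sources used here do not say whether the counting used it, so reads of Cdkn1c and of Gm44732 cannot be told apart in the overlap.

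H19 is an abundant long noncoding RNA of the embryo that is mostly silent after birth and carries the microRNA precursor shown above. It was at 0.0828 FPKM in Scramble control and 4.70 FPKM in Cdk14-sh, a ratio of 56.8 (10.2 to 2372), from about 2.07 and 118 reads. As for Snrpn, the control value is near the lowest measurable level, and the size of the ratio is loosely bounded. H19 (ENSMUSG00000000031) occupies 142575529 to 142578143 of chromosome 7 (minus strand). Its reciprocal neighbour Igf2, the fetal growth factor expressed from the other parental allele, was at 0.377 FPKM in Scramble control and 0.172 FPKM in Cdk14-sh, from 22 and 10 reads (ratio 0.455, 0.124 to 1.42). H19 was far higher in Cdk14-sh while Igf2 was low in both libraries, with no difference detectable at this depth, and 62.8% of the exonic bases of Igf2 are shared with other genes on its strand.

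Igf2r, the mannose 6-phosphate receptor that carries lysosomal enzymes and clears Igf2 from the cell surface, was at 7.55 FPKM in Scramble control and 7.75 FPKM in Cdk14-sh. Its ratio of 1.03 (0.885 to 1.19) rests on 716 and 734 reads, so the interval is narrow and includes equality. Igf2r (ENSMUSG00000023830) lies on chromosome 17 from 12682406 to 12769664 and shares 0 exonic bases with other genes. The smaller mannose 6-phosphate receptor M6pr was at 39.8 FPKM and 61.1 FPKM, 1.54-fold higher (1.41 to 1.68). Airn, the antisense RNA that silences Igf2r on the paternal chromosome, was at 0.877 FPKM and 0.110 FPKM, from 32.1 and 4.02 reads; it is below the filter and named after its values were seen.

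The members whose active allele depends on tissue were near equal or slightly lower. Gnas, which encodes the stimulatory G protein subunit that couples receptors to adenylyl cyclase, was at 25.6 FPKM in Scramble control and 24.1 FPKM in Cdk14-sh (ratio 0.941, 0.873 to 1.01). It has several promoters with opposite imprints, which a single value per gene does not separate, and 21.96% of its exonic bases overlap exons of the opposite strand (chromosome 2, 174284320 to 174346744). Grb10, an adaptor that damps the insulin and IGF1 receptors, was at 1.23 FPKM and 0.789 FPKM, 1.56-fold lower (1.02 to 2.47), from 114 and 73 reads. Grb10 (ENSMUSG00000020176) lies on chromosome 11 from 11930508 to 12038683, and its difference is only just beyond counting error.

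Other imprinted genes were listed in 2 groups by the allele known to be active where they are imprinted. Whether they are imprinted in these cells was not measured. The list of further paternally expressed genes held 24, of which the table has 13, and 7 passed the filter on the mean; the others were not analysed here. Their median log2 ratio was 0.49, with 3 genes 2-fold higher and 0 lower, beside 14.2% and 13.5% of all measured genes. Those 3 were below 1 FPKM in Scramble control and passed only through Cdk14-sh, so the count and the median support nothing. Snurf led, with the values above. Peg12, a small gene of the Prader-Willi region, was at 0.521 FPKM in Scramble control and 4.62 FPKM in Cdk14-sh, 8.87-fold higher (4.06 to 23.0), from 14 and 124 reads. Zrsr1, a retrogene related to a splicing factor, was at 0.658 FPKM and 3.05 FPKM, 4.64-fold higher (2.65 to 8.79). At the low end were Mcts2 (2.997 FPKM and 2.79 FPKM), Inpp5f (4.44 and 5.08) and Kcnq1ot1, the silencing RNA of the Cdkn1c domain (1.88 and 2.32). Without Snurf, whose reads are shared with Snrpn, 2 of this group remain beyond 2-fold.

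The maternally expressed list held 26 further genes, of which the table has 16, and 12 passed the filter. Their median log2 ratio was -0.12, with 3 2-fold higher and 1 2-fold lower, beside 14.2% and 13.5% of all measured genes. Dhcr7, the last enzyme of cholesterol synthesis, was at 0.338 FPKM in Scramble control and 5.41 FPKM in Cdk14-sh, 16.0-fold higher (8.49 to 34.0). Phlda2, a pleckstrin homology protein that limits placental growth, was at 7.53 FPKM and 36.3 FPKM, 4.82-fold higher (3.46 to 6.86). Klf14, a single-exon transcription factor gene, was at 0.128 FPKM and 3.22 FPKM, a ratio of 25.02 (6.57 to 212) from 4 and 100 reads. At the low end stood Ampd3, an AMP deaminase, 5.60-fold lower (3.42 to 10.3), at 3.40 FPKM and 0.608 FPKM. Next came Tssc4 (16.6 and 8.04 FPKM) and the Argonaute gene Ago2 (11.9 and 8.78 FPKM). Dhcr7 and Klf14 passed the filter only through Cdk14-sh and Ampd3 only through Scramble control. The maternal group went in both directions, and its median lay close to that of all genes.

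**Figure D3:**
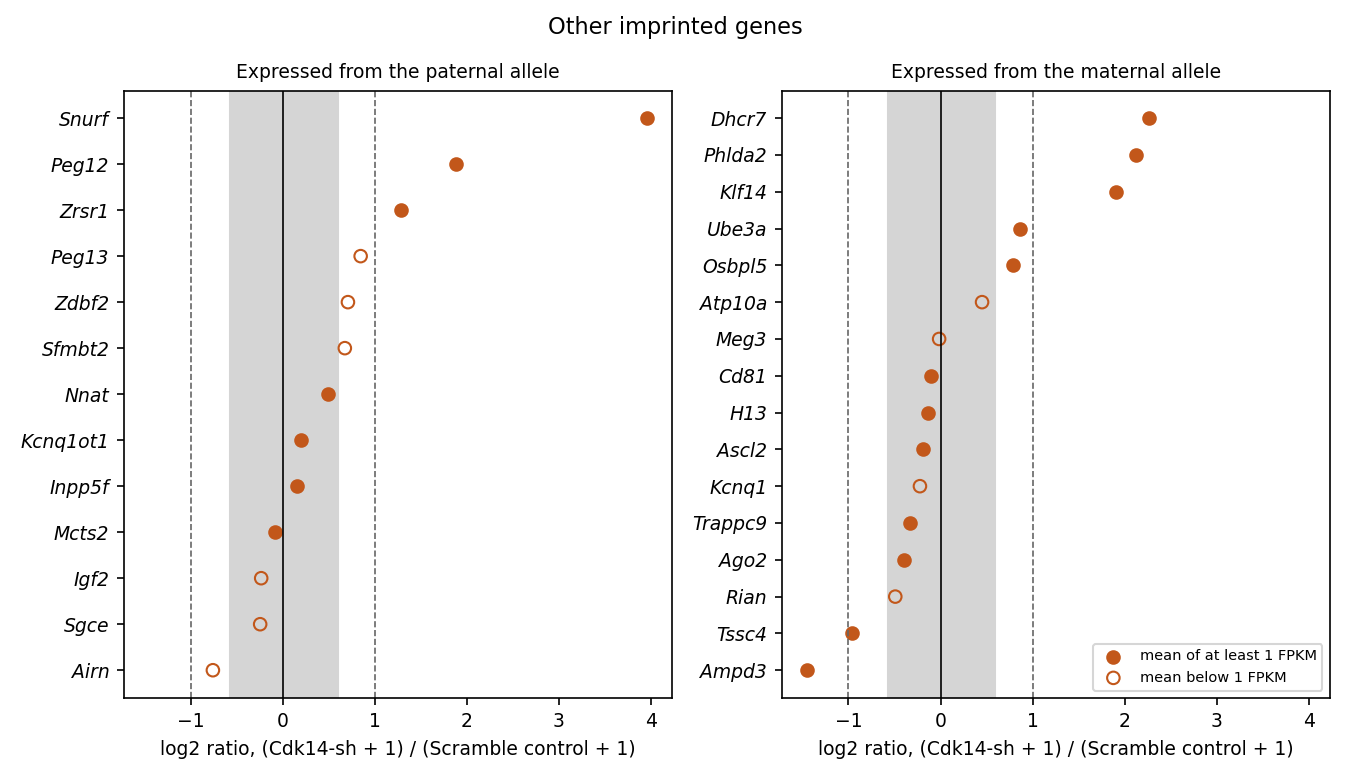
Log2 ratio, Cdk14-sh to Scramble control, of FPKM + 1 for the other imprinted genes in the table, by active allele. Filled points are measured genes (mean of 1 FPKM or more) and open points genes below that, the band spans -0.57 to 0.60 (25th to 75th percentile of all measured genes), and dashed lines mark 2-fold. Snurf, Peg12 and Zrsr1 on the left and Dhcr7, Phlda2 and Klf14 on the right lie beyond 2-fold higher, and Ampd3 beyond 2-fold lower.

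Members were then set beside the genes around them, since imprinted domains share control regions. Measured genes that start within 500 kb of the start of a member numbered 64 without the members. Among them were Snurf, Gm38393 and Gm44732, which share exonic bases with a member. Of the 64, 15.6% were 2-fold higher and 10.9% 2-fold lower, with a median log2 ratio of -0.15, beside the 14.2% and 13.5% of all measured genes. Within 500 kb of the start of Cdkn1c, 4 of 13 neighbours were 2-fold higher and 0 lower. These were Phlda2 and Dhcr7 with the values above, Gm44732, and the cysteine tRNA synthetase gene Cars (5.84 and 14.8 FPKM), named after its values were seen. This window is wider than the genes listed for the imprinted domain. Of 8 measured genes of that domain, 2 were 2-fold higher, Cdkn1c itself and Phlda2, and 0 were lower. On the other side of Cdkn1c, Tssc4, Cd81 (189 and 176 FPKM) and Ascl2 (4.96 and 4.24 FPKM) had lower values in Cdk14-sh. Cd81 and Ascl2 were also named after their values were seen. The 2-fold higher neighbours other than Gm44732 lay upstream of Cdkn1c. Downstream, the measured genes other than Gm44732 were within 2-fold on the log2(FPKM + 1) scale and went both ways, with Kcnq1ot1 1.23-fold higher (1.13 to 1.35) and the interval of Ascl2 including equality (ratio 0.528 to 1.38).

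Around H19, 0 of 10 neighbours were beyond 2-fold in either direction. Around Mest, Klf14 was higher and 2 of 11 neighbours were 2-fold lower. Around Plagl1, 3 of 8 neighbours were 2-fold lower and 0 higher, the largest gap being that of Stx11 (52.7 and 12.4 FPKM), named after its values were seen. In the Snrpn domain Ube3a, the ubiquitin ligase of Angelman syndrome, was at 4.29 FPKM in Scramble control and 8.58 FPKM in Cdk14-sh, 2.002-fold higher (1.79 to 2.25), and 27.3% of its exonic bases overlap exons of the opposite strand. Snhg14, the long transcript that continues from Snrpn towards Ube3a, was at 0.754 FPKM and 0.866 FPKM (ratio 1.15, 0.873 to 1.52). Snhg14 was below 1 FPKM in both libraries and so below the filter. Its annotated exons were thus low, with no difference detectable at this depth, in libraries that differed widely in Snrpn.

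**Figure D4:**
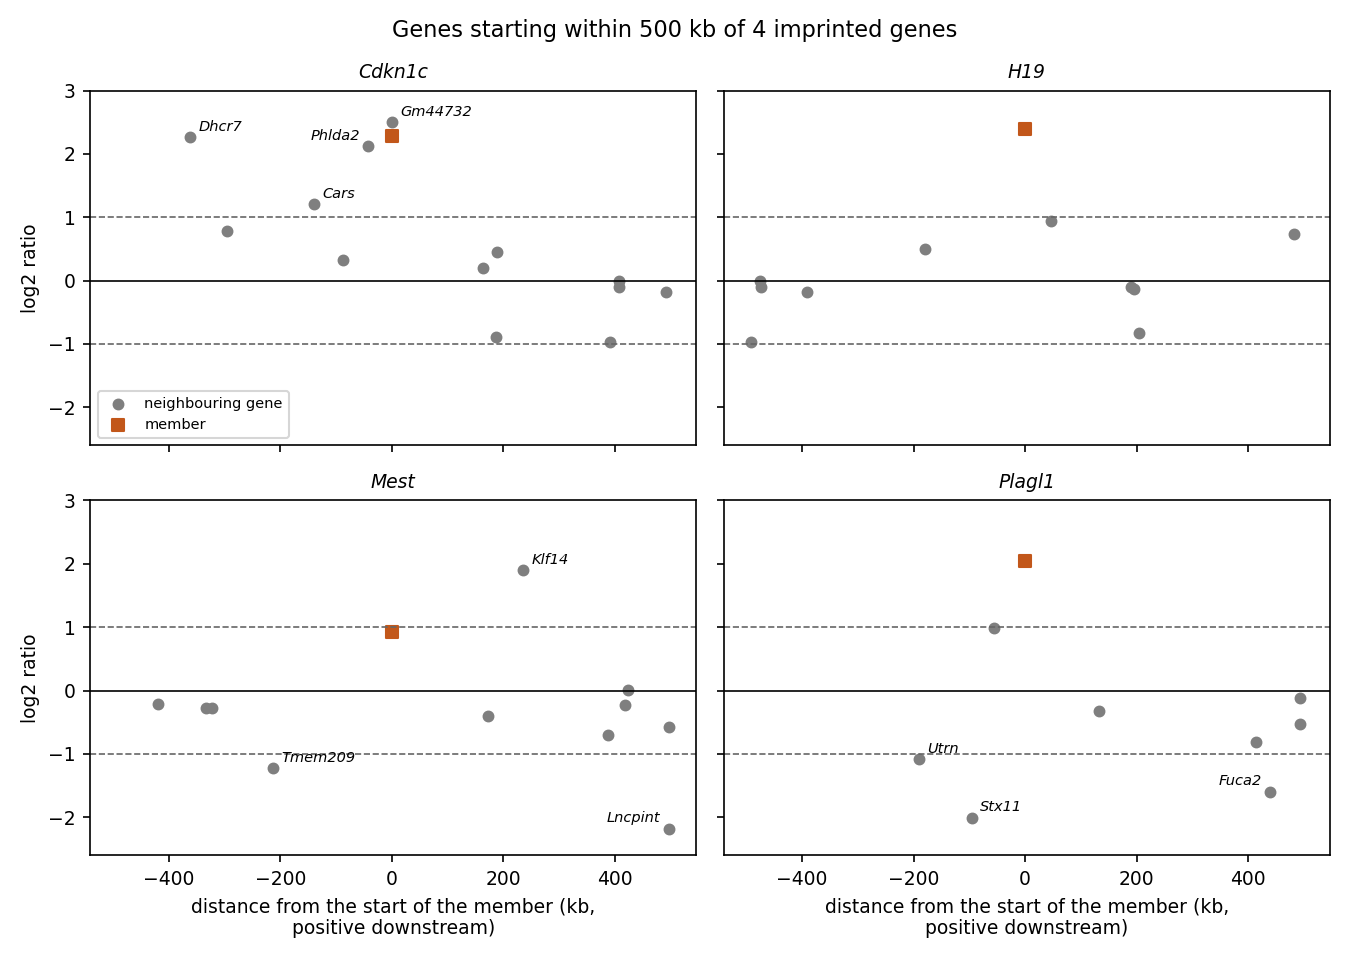
Log2 ratio of measured genes that start within 500 kb of Cdkn1c, H19, Mest or Plagl1, against distance from the start of the member in kb, positive downstream. Squares are the members, circles their neighbours, dashed lines mark 2-fold and genes beyond it are named. Of 13 neighbours of Cdkn1c 4 lie above the upper line, and of 10 neighbours of H19 0 do. Among all measured genes 14.2% were 2-fold higher. The 4 include Gm44732, which shares exonic bases with Cdkn1c, and Dhcr7, which reached a mean of 1 FPKM only through Cdk14-sh. Tssc4, R74862, Cd81 and Ascl2 are neighbours of both members, so the 2 sets are not separate.

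Of the members, 4 lie on chromosome 7 (Snrpn, Peg3, Cdkn1c and H19), and all 4 were 2-fold higher. Over the 945 measured genes of that chromosome, 16.4% were 2-fold higher and 11.7% 2-fold lower, with a median log2 ratio of 0.14. The chromosome as a whole was thus close to all genes.

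Genes that write, keep or erase imprints went both ways. Of 16 measured among 20 listed, 3 were 2-fold higher and 1 2-fold lower, with a median log2 ratio of 0.45. The shares of all measured genes were 14.2% higher and 13.5% lower, so these counts do not set the list apart. Dnmt1, which copies methylation to new DNA at replication, was at 0.306 FPKM in Scramble control and 6.57 FPKM in Cdk14-sh, 21.5-fold higher (11.6 to 40.4), from 23 and 494 reads. Hells, a remodelling helicase that assists methylation, was 9.41-fold higher (5.92 to 15.8), at 0.545 FPKM and 5.13 FPKM. Dnmt3a, a methyltransferase that sets new marks, was 2.64-fold higher (2.26 to 3.08), at 2.71 FPKM and 7.16 FPKM. Dnmt1 and Hells passed the filter only through Cdk14-sh. The lowest was Zfp57, the zinc finger protein that guards methylated imprints, at 2.33 FPKM and 0.415 FPKM, 5.62-fold lower (2.62 to 13.8), which passed only through Scramble control. Setdb1 (5.53 and 3.20 FPKM), a histone H3 lysine methyltransferase, and Smchd1 (8.38 and 5.09 FPKM), a chromatin protein of silenced loci, were lower by less than 2-fold.

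Genes known to act with the members were listed by pathway. Beside the counts of these lists, 51.45% of all measured genes were above 0, 14.2% were 2-fold higher and 13.5% 2-fold lower. Of the 11 Sm and small nuclear ribonucleoprotein genes, 10 were above 0 on the log2 ratio scale, with a median of 0.47, and 3 were 2-fold higher. Those 3 were Snrpa (4.74 and 26.0 FPKM), Snrpc (2.04 and 6.80 FPKM) and Snrpg (19.5 and 48.5 FPKM). Snrpb, which encodes the SmB protein that SmN resembles, was at 133 FPKM in Scramble control and 134 FPKM in Cdk14-sh. Snrpn thus amounted to 0.0570% of the Snrpb level in Scramble control and 14.4% in Cdk14-sh. Reads shared by these related genes could be split by the counting, and the sources used here do not say how multiply mapped reads were treated.

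Of the other cyclin-dependent kinase inhibitors, 4 were measured and 0 were 2-fold higher. Cdkn1a (p21) was at 243 FPKM in Scramble control and 240 FPKM in Cdk14-sh, and Cdkn1b (p27) at 15.4 FPKM and 8.81 FPKM. Cdkn2d was 3.44-fold lower (2.63 to 4.56), at 30.1 FPKM and 8.74 FPKM. Cdkn1c was 16.3% of the Cdkn1a level in Scramble control and 82.2% in Cdk14-sh. Of p21, p27 and p57, p57 had the largest ratio, and it alone was higher in Cdk14-sh.

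In the IGF and insulin pathway, on which Igf2r and Grb10 act, 1 of 14 measured genes was 2-fold higher and 2 2-fold lower, with a median log2 ratio of 0.01. The ligand Igf1 was at 0.159 FPKM in Scramble control and 2.58 FPKM in Cdk14-sh, a ratio of 16.3 (8.01 to 38.5) from 16 and 260 reads, and it passed the filter only through Cdk14-sh. Its receptor Igf1r was 4.03-fold lower (3.51 to 4.64), at 12.1 FPKM and 2.996 FPKM, and the kinase subunit Pik3ca 2.45-fold lower (2.11 to 2.85). Ligand and receptor thus stood on opposite sides.

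Among 16 genes of Gs and cyclic AMP signalling, 5 were 2-fold lower and 1 2-fold higher, with a median of -0.07. The cyclase Adcy9 was at 7.33 FPKM and 1.59 FPKM, the phosphodiesterases Pde4d at 5.12 and 1.77 FPKM and Pde4b at 225 and 106 FPKM. Ric8b, a chaperone of the Gs subunit, was 2.31-fold higher (1.91 to 2.78). Of the 9 measured genes of the Gcn2 axis on which Impact acts, 1 was 2-fold higher, with a median of 0.40. That gene was Eif2ak4, which encodes Gcn2, at 2.01 FPKM and 6.404 FPKM, 3.18-fold higher (2.44 to 4.14). Impact and the kinase it restrains were thus on opposite sides of equality. Atf4, the transcription factor translated when Gcn2 is active, was at 136 FPKM and 219 FPKM. These are transcript levels, and translation was not measured. Of the 9 genes, 2 were below 0 on the log2 ratio scale, Ppp1r15a (264 and 172 FPKM) and Eif2s1 (82.4 and 82.2 FPKM). Among all measured genes 14.2% were 2-fold higher, so 1 of 9 does not set this axis apart. Genes of the p53 and TNF pathways linked to Peg3 showed 0 of 5 beyond 2-fold in either direction, with Trp53 at 56.6 FPKM and 53.3 FPKM.

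Markers of other cells also differed between the libraries, and their part in the results above was not tested. Beside the marker counts below, 14.2% of all measured genes were 2-fold higher and 13.5% 2-fold lower. All 10 basal markers were measured, summing to 4496 FPKM in Scramble control and 3313 FPKM in Cdk14-sh, and 1 was 2-fold higher, 2 were 2-fold lower and 4 of the 10 were above 0 on the log2 ratio scale. Krt14 was at 1199 and 994 FPKM, Krt5 at 129 and 241.5 FPKM, and Trp63 at 8.42 and 23.9 FPKM, 2.84-fold higher (2.51 to 3.20). The basal markers thus went both ways. The 11 measured endothelial markers summed to 234 FPKM and 64.1 FPKM, and 7 were 2-fold lower. Of the 7, Emcn, Tek and Tie1 were below 1 FPKM in Cdk14-sh and passed the filter only through Scramble control. Immune markers in the table numbered 6 and summed to 82.2 FPKM and 355.5 FPKM, and 4 of the 5 measured were 2-fold higher. Those 4 were Cd74, H2-Aa, H2-Ab1 and Csf1r. Coro1a, the other measured marker, was lower, at 2.61 and 1.06 FPKM (ratio 0.406, 0.207 to 0.757). Ptprc, below the filter, was also lower, at 0.482 and 0.247 FPKM, so the immune markers went both ways. The 7 measured fibroblast markers went both ways, with 4 2-fold higher and 2 lower, among them Col3a1 at 1.18 and 8.77 FPKM and Dcn at 104 and 41.2 FPKM, and summed to 308 FPKM and 178 FPKM. The 5 pericyte markers in the table summed to 127 FPKM and 60.03 FPKM, with 3 of 4 measured 2-fold lower and 1 higher. Abcc9, among the 3 lower, passed the filter only through Scramble control, and Des, the 1 higher, only through Cdk14-sh. The 8 luminal markers in the table summed to 1209 FPKM and 649 FPKM, with 2 of 4 measured 2-fold lower and 1 higher. The other 4, Esr1, Prlr, Pgr and Kit, were below the filter and higher in Cdk14-sh, as in Esr1 at 0.0862 and 1.55 FPKM. The luminal median of -0.69 turned to 0.43 without the filter and to 0.64 after scaling to an equal sum. Single markers are named after their values were seen. No gene of any kind is listed at 0 in either library, so a marker with no read in 1 library is not seen here. In bulk RNA, a different number of cells of a type and a different amount of RNA per cell cannot be told apart. The totals behind the FPKM values were 10186924 reads in Scramble control and 10177185 in Cdk14-sh, so depth was nearly equal.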

How the data were processed

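The data are 1 table of FPKM values for 15239 genes, 1 column for each of 2 libraries, as the authors deposited it. Per the labels' protocols, a stranded mRNA kit was used on total RNA. Bowtie 0.12.2, featureCounts and Subread 1.5.1 are named, with builds mm8 and GRCm38 and no role for either, in the submitters' processing notes. Column names shorten the sample titles, and each fits 1 title. No gene is listed at 0 in either library, so a gene with no read in 1 library is not analysed here. Members and gene lists were chosen with earlier results of these data known. The named genes are the 10 members, up to 3 highest and 3 lowest of each list or domain among genes of mean 1 FPKM or more, and Snurf, Igf2, Snrpb, Ube3a and Cdk14; others are marked or named as overlapping, related or marker genes.

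Reads were recovered as FPKM times exonic length (GENCODE M21, GRCm38) times the total that makes low values multiples of 0.5 reads. For 79.2% of 15195 genes with a length both values were such multiples within 0.01 reads; lengths may differ from the authors' for the rest. Of 10989 whole read numbers below 200, 73.7% were even, so 2 reads counted as 1 fragment, with a minimum of 1, in every 95% Clopper-Pearson interval. Without molecular identifiers, reads need not be separate molecules, so these intervals hold counting error and nothing else. The log2 ratio used a pseudocount of 1 FPKM, which understates differences of low genes. Of symbols listed more than once, the row of highest mean was used. The calculation was tested on simulated data that held counting error only, which says nothing about variation between libraries. Alternatives were pseudocounts, filters, scalings, fold limits, summed rows and 1 read per fragment; leaving out members that share exonic bases was added after seeing the data. Python 3.11.15, pandas 2.3.3, numpy 2.4.6 and scipy 1.17.1 were used.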

Additional observations from a re-analysis of the deposited data

How the results depend on the processing

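No paired analysis was possible because each group held 1 library, and no replicate could be left out. Summed rows left the log2 ratio of every member as it was. Pseudocounts and filters cannot change the sign of a single gene. Under the 3 scalings, which can, 29 of 30 member log2 ratios kept their sign; the exception was Igf2r after scaling to an equal sum (-0.03). The median of the members was 1.26 with a pseudocount of 0.1, 0.75 with a pseudocount of 5, 0.93 at a minimum mean of 5 FPKM and 0.67 without the 4 members that share over 20% of their exonic bases. Their count at least 2-fold higher was 2 with a pseudocount of 5 (5.28% of all genes), 3 at a minimum mean of 5 FPKM and 3 without those 4 members. With a pseudocount of 5, Snrpn, H19, Plagl1 and Peg3 were at 2.25, 0.93, 0.96 and 0.85, and with 0.1 at 6.78, 4.72, 2.88 and 1.49. The median of the IGF and insulin genes turned from 0.01 to -0.38 at a minimum mean of 5 FPKM, to -0.01 at an equal median and to -0.04 at an equal sum, and that of the Gs genes from -0.07 to 0.05 at a minimum mean of 5 FPKM. The other paternally expressed genes had medians of 0.35 with a pseudocount of 5 and 2.22 at a minimum mean of 5 FPKM; their count higher was 1 in both settings, 1 at a limit of 4-fold and 5 after scaling to an equal sum, where 1 was lower. The other maternally expressed genes had 1 higher with a pseudocount of 5 or a minimum mean of 5 FPKM and 5 at a limit of 1.5-fold; their count lower was 2 with a pseudocount of 0.1, after scaling to an equal sum and at 1.5-fold, and 0 with a pseudocount of 5, at a minimum mean of 5 FPKM and at 4-fold. Fewer genes pass where the pseudocount or filter is larger. With 1 read as 1 fragment the interval of the ratio was 58.1 to 1750 for Snrpn and 16.0 to 493 for H19. Depth limits the ratios of genes with few control reads, among them Snrpn, Snurf, H19, Peg13, Zdbf2 and Grb14, each at about 2 reads or fewer.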

Other observations

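Several imprinted genes had a mean below 1 FPKM and entered none of the counts; they are named here after their values were seen. On the paternally expressed side, Peg13, a noncoding RNA within an intron of Trappc9, was at 0.0416 FPKM in Scramble control and 0.873 FPKM in Cdk14-sh, a ratio of 21.02 (3.38 to 869) from 2 and 42 reads. Its host Trappc9 was at 3.55 FPKM and 2.63 FPKM. Zdbf2, a zinc finger gene, was at 0.0155 FPKM and 0.660 FPKM, a ratio of 42.5 (7.14 to 1700) from 2 and 85 reads, and the polycomb-related gene Sfmbt2 at 0.0645 FPKM and 0.700 FPKM (10.8-fold, 3.34 to 54.5). Sgce, a sarcoglycan gene, was at 0.777 FPKM in Scramble control and 1.55-fold lower in Cdk14-sh (0.936 to 2.62), within counting error. Peg13, Zdbf2 and Sfmbt2 had 6 reads or fewer in the control library.

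In the Dlk1-Dio3 domain the maternally expressed noncoding RNA Rian was 3.21-fold lower in Cdk14-sh (1.93 to 5.48), at 0.722 FPKM and 0.225 FPKM, while Meg3 was at 0.0434 FPKM and 0.0326 FPKM from 8 and 6 reads. Kcnq1, the channel gene of the Cdkn1c domain, was at 0.336 FPKM and 0.144 FPKM from 14 and 6 reads, with no difference detectable at this depth. Atp10a, also on the maternally expressed list, went the other way. It was at 0.246 FPKM in Scramble control and 0.704 FPKM in Cdk14-sh, from 14 and 40 reads (ratio 2.86, 1.16 to 8.01). Of the enzymes that oxidise methylated cytosine, Tet1 was 12.6-fold higher (6.76 to 24.1), at 0.147 FPKM and 1.85 FPKM, Tet3 2.23-fold higher (1.92 to 2.58) and Tet2 1.70-fold higher (1.45 to 1.98). All 3 Tet genes, also named after their values were seen, were higher in the Cdk14-sh library by more than their counting error. Grb14, a relative of Grb10 named in the same way, was at 0.0273 FPKM and 1.504 FPKM from 2 and 110 reads (ratio 55.1, 9.48 to 2214).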
